A study of Mus musculus with 2 samples.

Results

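The miR-29 family of the mouse is encoded by 4 miRNA genes in a pair of small clusters, Mir29a with Mir29b-1 on chromosome 6 and Mir29b-2 with Mir29c on chromosome 1. The genes were taken by name from the GENCODE M21 annotation, and all 4 were present among the 2202 miRNA genes counted. The libraries, of RNA under 30 in size per the labels (unit not stated), came from tissue labelled as layer of hippocampus of male B6CASTF1/J mice, the first-generation offspring of C57BL/6J and CAST/EiJ parents, at 14 days of age. There was 1 group with 2 biological replicates and no treatment, genotype or age to set against it. Each replicate's label lists 3 males without saying how the tissue was pooled, and both labels share a donor identifier, so the spread between replicates may be partly technical. The assigned counts numbered 3793934 in replicate 1 and 2554997 in replicate 2. Levels are given as CPM, the counts of a gene per 1000000 counts assigned to miRNA genes in that library.

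A miRNA is cut from a hairpin precursor and loaded into an Argonaute protein, where its seed, bases 2 to 8, pairs with messenger RNAs and lowers their output. The miR-29 family is known in mouse brain for a steep postnatal rise as neurons mature. Its best studied targets are the DNA methyltransferases Dnmt3a and Dnmt3b, pro-apoptotic BH3-only genes of neurons, and genes of collagens and other matrix proteins. Astrocytes as well as neurons express it. The present libraries hold a single age, so no change with age was measured here.

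The mature sequences of the family are shown because they set which reads can be told apart. They are RefSeq entries on GRCm38.p6, the assembly also called mm10, read 5′ to 3′, with the seed in capitals. The 3p arms of all 4 genes carry the same seed, which pairs with the target letters UGGUGCU.
miR-29a-3p: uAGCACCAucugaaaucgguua
miR-29b-3p: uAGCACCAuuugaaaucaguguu
miR-29c-3p: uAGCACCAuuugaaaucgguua

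The seed was found in 3 of the 1679 mature mouse miRNAs of that table (0.179%), all of them miR-29. With positions counted from 1 at the 5′ end, miR-29a-3p and miR-29c-3p differ at a single base, C10U. From miR-29c-3p to miR-29b-3p the aligned differences are G18A, U21G and A22U, and miR-29b-3p is 23 rather than 22 nucleotides long. Their first 17 bases are identical. The first 11 bases of miR-29a-3p and the first 18 of miR-29c-3p are enough to place each in 1 of the 2202 counted hairpins. No length of miR-29b-3p does so, since the whole sequence lies in both Mir29b-1 and Mir29b-2.

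The letters AGUGUU close miR-29b-3p, and in human cells this terminal element is known to direct miR-29b to the nucleus. Searched on the RNA strand alone, the motif lay anywhere in 12 of the 1679 mature sequences (0.715%) and at the very end of 2, miR-29b-3p and miR-92b-5p. Neither miR-29a-3p nor miR-29c-3p ends in it.

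The 5p arms are shown because they separate the 29b hairpins that the 3p arm cannot.
miR-29a-5p: aCUGAUUUcuuuugguguucag
miR-29b-1-5p: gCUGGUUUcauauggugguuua
miR-29b-2-5p: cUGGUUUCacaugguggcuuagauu
miR-29c-5p: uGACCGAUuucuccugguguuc

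Bases 2 to 8 differ among these 4 arms, unlike those of the 3p arms. The counts were made per hairpin, so 5p and 3p reads of a gene were not separated and no value below belongs to an arm.

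The identical stretch of the 29b hairpins runs past the mature sequence. It covers 25 nucleotides, given in capitals with 2 flanking bases on each side.
Mir29b-1: ugUCUAGCACCAUUUGAAAUCAGUGUUcu
Mir29b-2: uaUCUAGCACCAUUUGAAAUCAGUGUUuu

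These lie at chr6:31063023-31063051 on the minus strand and chr1:195037087-195037115 on the plus strand of mm10. A read that stays within the capitals maps equally well to both hairpins, and reads that mapped to several places were counted for no gene. The counts of Mir29b-1 and Mir29b-2 are therefore uncertain and do not measure miR-29b-3p. The longest stretch that Mir29c shares with Mir29b-1 is 22 nucleotides, which begin before the mature sequence and end within it, and with Mir29b-2 it is 19. Mir29a shares at most 14 nucleotides with any other member.

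Mir29a (ENSMUSG00000065610.1) spans 31062660 to 31062747 of chromosome 6 on the minus strand and overlaps no other annotated gene. Mir29b-1 (ENSMUSG00000065604.2) lies at 31063023 to 31063093, upstream of Mir29a, and its outermost 2 bases overlap an exon of the long non-coding gene Gm27019. The 3′ end of Lncpint, a p53-induced long non-coding RNA gene on the same strand, lies 19.5 kb further upstream. Mir29b-2 (ENSMUSG00000065412.3) at 195037040 to 195037120 and Mir29c (ENSMUSG00000065548.1) at 195037547 to 195037634 of chromosome 1 are on the plus strand. Both lie whole within an exon of the non-coding host A330023F24Rik, and opposite an untranslated region of Cd46, a complement regulator gene on the other strand. The gap between hairpins is 275 bp at the chromosome 6 locus and 426 bp at the chromosome 1 locus, and in each the 29b hairpin is transcribed first.

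**Figure D1:**
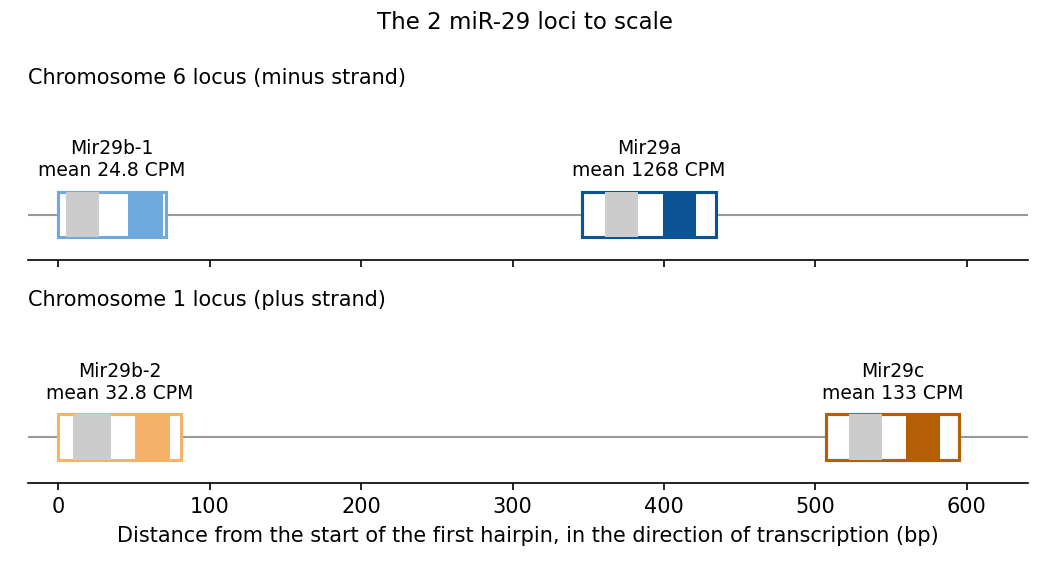
Maps of both miR-29 loci to scale, with distance in bp from the start of the first hairpin in the direction of transcription. Boxes are hairpins, grey fills the 5p arm and colour the 3p arm, and each hairpin carries its mean CPM over the 2 libraries: the second hairpin is the higher one at both loci, 1268 CPM for Mir29a beside 24.8 CPM for Mir29b-1, and 133 CPM for Mir29c beside 32.8 CPM for Mir29b-2.

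All 4 genes were detected, reaching 2 CPM in replicate 1 and in replicate 2, and their levels differed widely. The family made up 0.151% of assigned counts in replicate 1, with a 95% Wilson interval from 0.147 to 0.155%, against 0.141% in replicate 2, with an interval from 0.136 to 0.145%, or 0.146% ± 0.00713 (SD, n = 2). Such an interval takes in the error of counting alone, because PCR copies carry no molecular identifiers here and are not separate molecules. The reads given to no gene because they mapped to several places made up 26.3% of all reads in replicate 1 and 37.5% in replicate 2. Any miR-29b-3p reads among them are missing from the family's share.

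Mir29a, the highest of the 4 hairpins in these counts, had 4864 counts in replicate 1 and 3204 in replicate 2, or 1282 and 1254 CPM. Its mean of 1268 ± 19.8 CPM (SD, n = 2) placed it at rank 99 of 2202 genes, of which 426 were detected. It held 85.0% of the family's counts in replicate 1 and 89.0% in replicate 2.

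Mir29c had 577 counts in replicate 1 and 291 in replicate 2, or 152 and 114 CPM, a mean of 133 ± 27.0 CPM (SD, n = 2) at rank 192. Its mature sequence differs from that of Mir29a by the single base given above. It lay far below Mir29a in both libraries, with no overlap.

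Mir29b-2 had 142 counts in replicate 1 and 72 in replicate 2, or 37.4 and 28.2 CPM, a mean of 32.8 ± 6.54 CPM at rank 255. Mir29b-1 had 142 and 31 counts in replicates 1 and 2, or 37.4 and 12.1 CPM, a mean of 24.8 ± 17.9 CPM at rank 273. The 29b genes had the same count in replicate 1 and overlapped in their spread, so their order is not settled by these libraries. Together they held 4.96% of the family's counts in replicate 1 and 2.86% in replicate 2. Neither library had a count on the opposite strand of any member.

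**Figure D2:**
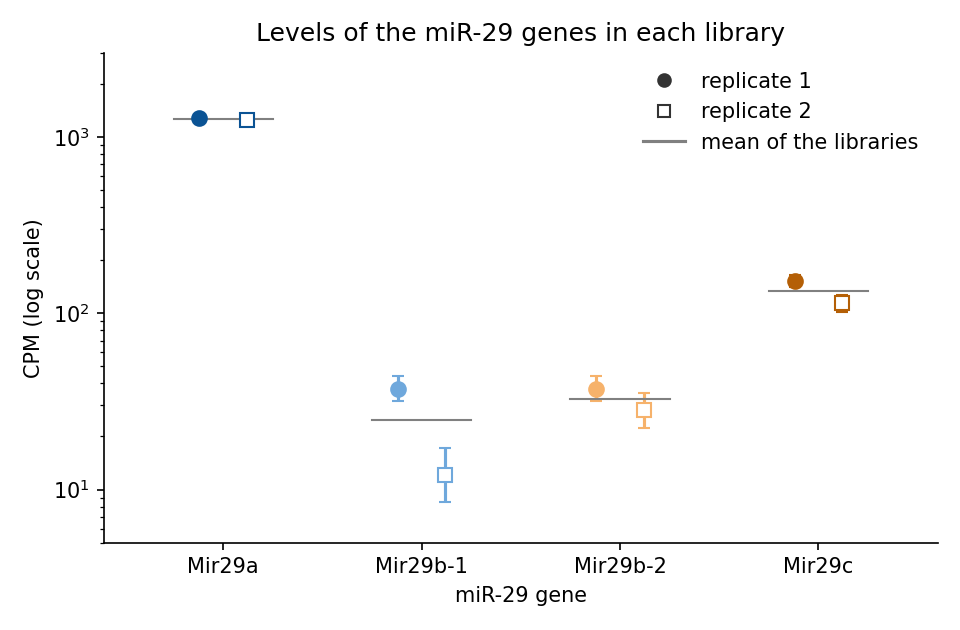
CPM of each miR-29 gene on a log scale, with filled circles for replicate 1, open squares for replicate 2, grey lines for the mean and bars for the 95% Wilson interval of counting error. Mir29a sits at 1282 and 1254 CPM, Mir29c at 152 and 114 CPM, and Mir29b-2 and Mir29b-1 lie lowest, with Mir29b-1 at 37.4 and 12.1 CPM.

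Among the counts placed in a single hairpin, the chromosome 6 locus outweighed the chromosome 1 locus in both libraries. Reads that fit both Mir29b-1 and Mir29b-2 were counted for neither locus, so the full output of the loci was not compared. Mir29a and Mir29b-1 together had 5006 counts in replicate 1 and 3235 in replicate 2, against 719 and 363 for Mir29b-2 and Mir29c. The ratio of the loci was 6.96 in replicate 1 (95% exact interval of counting error 6.44 to 7.54) and 8.91 in replicate 2 (7.99 to 9.96), a mean log2 ratio of 2.98 ± 0.252 (SD, n = 2). The chromosome 6 share of the family's assigned counts was 87.4% in replicate 1 and 89.9% in replicate 2. The split differed between the libraries by more than counting error in a two-sided Fisher's exact test (log2 odds ratio -0.36, replicate 1 over replicate 2, p = 0.000292, adjusted over 7 ratios 0.000666).

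Without the uncertain 29b genes, the ratio of Mir29a to Mir29c was 8.43 in replicate 1 (7.73 to 9.21) and 11.01 in replicate 2 (9.76 to 12.5), a mean log2 ratio of 3.27 ± 0.272 (SD, n = 2). It also differed between the libraries in Fisher's exact test (log2 odds ratio -0.39, p = 0.000381, adjusted over 7 ratios 0.000666). These tests compare the reads of 2 libraries and not conditions.

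Between the 2 libraries the ratio of neighbours moved at the chromosome 6 locus and hardly at the chromosome 1 locus. Mir29c exceeded its neighbour Mir29b-2 by 4.06-fold in replicate 1 (3.38 to 4.92) and 4.04-fold in replicate 2 (3.11 to 5.31), which Fisher's exact test did not separate (log2 odds ratio 0.01, p = 1). Mir29a exceeded its neighbour Mir29b-1 by 34.3-fold in replicate 1 (28.99 to 40.8) and 103-fold in replicate 2 (72.7 to 152), and these did differ in Fisher's exact test (log2 odds ratio -1.59, p = 1.23e-09, adjusted over 7 ratios 8.64e-09). Mir29b-1 stood at 1.00 times Mir29b-2 in replicate 1 (0.787 to 1.27) and at 0.431 times in replicate 2 (0.273 to 0.665), again a difference beyond counting error (Fisher's exact test, adjusted over 7 ratios p = 0.000715). The ratios other than the locus ratio and Mir29a to Mir29c were added after their values were seen. All those that involve a 29b gene rest on the reads that could be placed in a single hairpin. Fisher's exact test covers counting error alone and leaves out the spread between replicates. With that spread the level of Mir29b-1 did not pass between the libraries (negative binomial test, given below, unadjusted p = 0.0569).

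Pairs of detected miRNA genes that neighbour each other on the same strand, with a gap of up to 10 kb, gave a scale for these ratios, again chosen after the members' values were seen. Over 110 such pairs, the absolute log2 ratio of the neighbours, as the mean of the libraries of log2(CPM + 0.5), had a median of 2.84. Mir29a and Mir29b-1 were 5.86 apart, with 13 pairs further apart. Mir29b-2 and Mir29c were 2.00 apart, with 67 pairs further apart. Between the libraries the log2 ratio of neighbours moved by a median of 0.52. That of Mir29a and Mir29b-1 moved by 1.55, with 9 pairs moving more, and that of Mir29b-2 and Mir29c by 0.01, with 107 moving more. The pairs share libraries and genes, and 49 of them lie on chromosome 12, so the ranks are a description. Both miR-29 pairs hold a gene that shares 20 nucleotides with another hairpin, so reads of that gene may be missing. The 69 pairs without such a stretch had a median of 2.70 and moved by a median of 0.55.

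**Figure D3:**
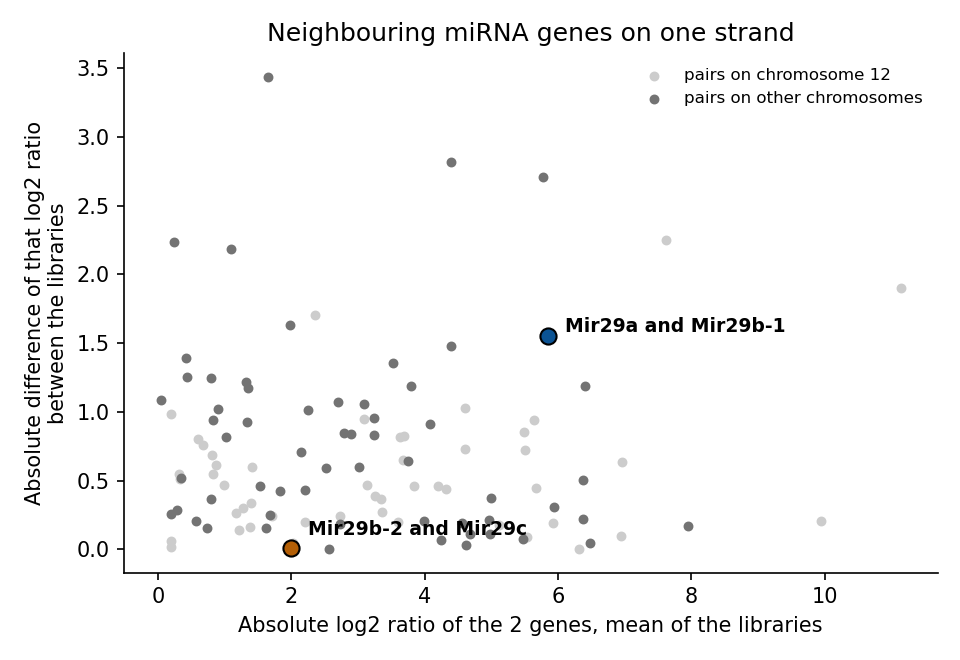
Each point is a pair of neighbouring detected miRNA genes on the same strand, with the absolute log2 ratio of the pair (mean of the libraries) on the x axis and the absolute difference of that ratio between the libraries on the y axis, both on the log2(CPM + 0.5) scale. Mir29a and Mir29b-1 lie at 5.86 and 1.55, toward the upper right, and Mir29b-2 and Mir29c lie on the baseline at 2.00 and 0.01.

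Between the libraries, 2 of the 4 genes differed by more than counting error, both higher in replicate 1. In a two-sided exact binomial test with Benjamini-Hochberg adjustment over 507 genes, 264 genes (52.1%) differed of which 128 (25.2% of those tested) were higher in replicate 1 and 136 (26.8%) in replicate 2. The members' 2 of 4 is close to the first of these shares, and 4 genes are too few to read their common direction against the second.

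Mir29b-1 was 3.08-fold higher in replicate 1 than in replicate 2 (95% exact interval 2.08 to 4.71, adjusted p = 1.42e-09 in the exact binomial test). Of the 426 detected genes, 24 had a larger ratio in either direction. Mir29c was 1.34-fold higher in replicate 1 (1.16 to 1.54, exact binomial test, adjusted p = 0.000133). Mir29b-2, at nearly the same ratio of 1.33 with fewer counts, did not pass (0.993 to 1.79, adjusted p = 0.0914 in the exact binomial test). Mir29a differed by 1.02-fold (0.978 to 1.07, exact binomial test, adjusted p = 0.438), and 411 detected genes had a larger ratio. The median absolute log2 ratio of the detected genes was 0.44, beside 0.03 for Mir29a, 0.40 for Mir29b-2, 0.42 for Mir29c and 1.59 for Mir29b-1.

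That test leaves out the spread between replicates. Estimated over genes as edgeR's common dispersion, this spread came to a coefficient of variation of 0.378. With it in a negative binomial test, no member passed (adjusted p = 1 for each, unadjusted p = 0.0569 for Mir29b-1 and from 0.575 to 0.934 for the others). In that test 2 of 507 genes (0.394%) passed, Mir301 and Mir31, and 23 had an unadjusted p under 0.05. The spread was estimated from the same 2 libraries that it then compares, so a gene that misses the threshold here is not shown to be alike in both.

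**Figure D4:**
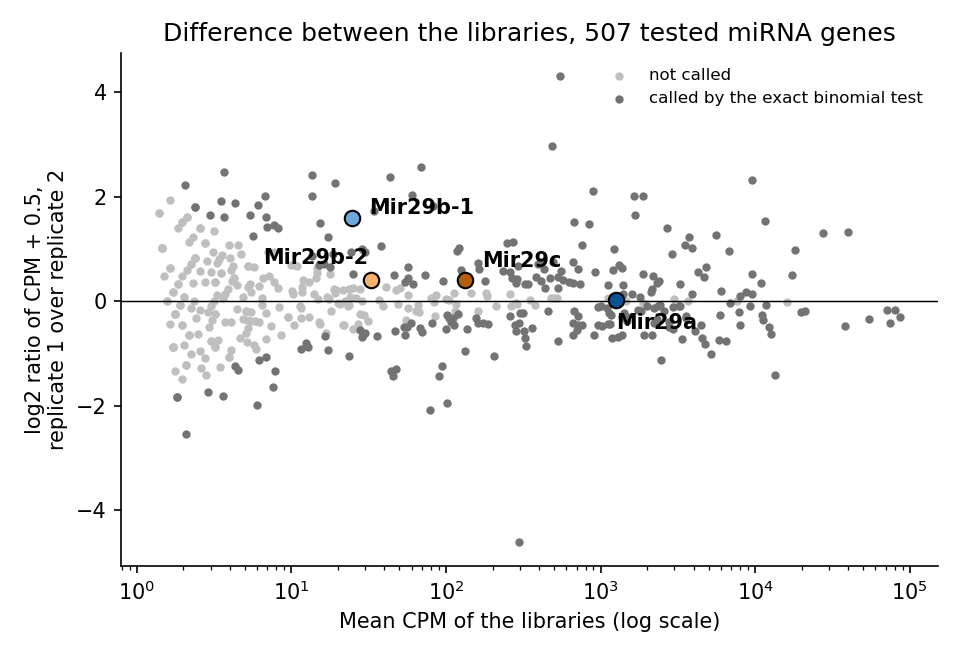
The log2 ratio of replicate 1 over replicate 2, on the log2(CPM + 0.5) scale, against mean CPM for the 507 tested miRNA genes, with dark points for genes called by the exact binomial test. Mir29a lies at 0.03, Mir29b-2 and Mir29c lie at 0.40 and 0.42, and Mir29b-1 lies above them at 1.59.

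Some marker miRNAs of glia, choroid plexus, neurons and vessels were, like Mir29c and Mir29b-1, higher in replicate 1. The oligodendrocyte list (Mir219a-1, Mir219a-2 and Mir338, all detected) held 0.406% of counts in replicate 1 and 0.125% in replicate 2, and by the exact binomial test 2 of its 3 genes were higher in replicate 1, Mir219a-2 and Mir338. The astrocyte and glia-enriched list, with 4 of 6 genes detected, held 0.261% and 0.04998%, with 2 of 6 higher in replicate 1, Mir21a and Mir31. The choroid plexus and ciliated list held 0.198% in replicate 1 and 0.0931% in replicate 2, with 3 of its 4 tested genes higher in replicate 1. Of its genes, Mir34c stood at 857 CPM in replicate 1 and 109 CPM in replicate 2, and Mir204 at 743 and 581 CPM. No gene of these 3 lists was higher in replicate 2 in that test. Over all tested genes 25.2% were higher in replicate 1, and the astrocyte and glia-enriched count is near that share. Of the genes in these lists, Mir31 alone passed the negative binomial test. The median log2 ratio of replicate 1 over replicate 2 was 1.08 for the oligodendrocyte list, 0.64 for the astrocyte and glia-enriched list and 0.52 for the choroid plexus and ciliated list, beside 0.02 over all tested genes. The neuron list held 6.25% in replicate 1 and 4.84% in replicate 2, with 5 of 15 tested genes higher in each. Its leading genes Mir132 and Mir149 were higher in replicate 1, at log2 ratios of 1.54 and 0.51. The endothelial and mural list held 1.43% and 1.11%, with 1 of 3 higher in each, Mir126a in replicate 1 (log2 ratio 0.53) and Mir143 in replicate 2 (-0.12). The myeloid list held 0.178% and 0.170%, with 2 of 5 higher in each. The erythroid list went the other way, at 0.00754% in replicate 1 and 0.0192% in replicate 2. Of its 3 genes, 1 was higher in replicate 1 and 2 in replicate 2. The part of cell makeup, or of the multimapping shares given above, in the difference of Mir29c and Mir29b-1 was not tested. Nor was that of unmapped reads, which made up 41.3% of reads in replicate 1 and 20.7% in replicate 2. In whole tissue, fewer cells of a type and less RNA per cell cannot be told apart.

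The label of brain tissue was checked against these lists. Of 17 neuron genes 14 were detected, led by Mir149 and Mir132, and the muscle list had 1 of 7 detected (Mir206) and 4 at 0 in both libraries. Mir124a-2 and Mir124a-3 of the neuron list were not detected, at means of 0.855 and 0.783 CPM. Because reads that mapped to several places were counted for no gene, list values can fall short for genes with a shared mature sequence. The liver marker Mir122 stood at 25.2 ± 6.50 CPM and the muscle marker Mir206 at 31.5 ± 5.80 CPM. Both are near the means of the 29b genes, 24.8 CPM for Mir29b-1 and 32.8 CPM for Mir29b-2. Detection at such a level does not by itself place a gene in hippocampal cells. Markers of other cells in the tissue were detected as well, with 1.27% of counts on the endothelial and mural list, 0.174% on the myeloid list, 0.146% on the choroid plexus and ciliated list and 0.0134% on the erythroid list, as means of the libraries.

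Other miRNAs known to rise in brain after birth lay on both sides of Mir29a in these counts, with 8 of 15 above it. Their list held 11.9% ± 0.479 of counts (SD, n = 2) with 12 of 15 genes detected. It includes genes numbered as copies, such as Mir124a-2 and Mir124a-3, and any reads that fit several of them are missing from these values. Most of that share came from Mirlet7b, a let-7 gene of differentiated cells, at 87109 ± 12463 CPM and Mir132, induced by neuronal activity, at 11607 ± 8004 CPM. It also holds the oligodendrocyte genes given above. In the exact binomial test 4 of its 13 tested genes were higher in replicate 1, against 5 in replicate 2. The list's median log2 ratio was -0.03. The list associated with dividing progenitors, of miR-17/92 and related genes, held 1.74% ± 0.168 with 12 of 16 detected, led by Mir92b at 7672 ± 50.4 CPM and Mir93 at 4490 ± 982 CPM. None of its 12 tested genes was higher in replicate 1 and 7 were higher in replicate 2, with a median log2 ratio of -0.40. Over all tested genes 25.2% were higher in replicate 1 and 26.8% in replicate 2. As a count that differed, 7 of 12 is close to the 52.1% that differed in either direction. All 7 went the same way, but genes of this list lie together in clusters and are not independent. None of the list passed the negative binomial test.

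Other miRNAs reported in human cells to repress DNA methyltransferases, a target class shared with miR-29, held 0.357% ± 0.0126 of counts, and all 6 genes were detected. They were led by Mir143, also a smooth muscle marker, at 2951 ± 166 CPM and by Mir101b at 395 ± 137 CPM. In the exact binomial test 1 of the 6 was higher in replicate 1, Mir101b, and 4 were higher in replicate 2, beside 25.2% and 26.8% of all tested genes. The median log2 ratio of the list was -0.43. Mir29a lies between these leading genes.

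Genes nearest to each member were named by distance on the log2(CPM + 0.5) scale over the 2 libraries, which is a likeness of level and rests on 2 points. Nearest to Mir29a were Mir540, Mir1249 and Mir383, at distances from 0.20 to 0.27. Nearest to Mir29c were Mir218-2, Mir873a and Mir6944, from 0.14 to 0.27. Mir92-2, Mir7047 and Mir701 were nearest to Mir29b-2, from 0.12 to 0.38. Mir29b-1 had its nearest genes further off, with Mir1264, Mir486 and Mir677 from 0.48 to 0.61.

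Reads of Mir29b-1 and Mir29b-2 that fit both hairpins are a case of a wider feature of the annotation. Of the 111 genes with a mature sequence found whole in another hairpin, as in Mir29b-1 and Mir29b-2, 47 were detected (42.3%) and 53 had no count. Of the 907 other genes that could be matched to a mature sequence by symbol, Mir29a and Mir29c among them, 334 were detected (36.8%) and 310 had no count. Among the detected genes the median level was 84.0 CPM with a shared mature sequence and 106 CPM without. Both 29b genes lay below that median of 84.0 CPM, and yet 30 and 37 of the 111 genes lay above Mir29b-2 and Mir29b-1. Split instead by any stretch of 20 nucleotides shared with another hairpin, which puts Mir29c beside Mir29b-1 and Mir29b-2, the same 1018 genes gave 72 detected of 174 with such a stretch (41.4%) and 309 of 844 without (36.6%). Over all 2202 genes the shares were 85 of 1087 (7.82%) and 341 of 1115 (30.6%). That set takes in 1184 genes with no matched mature sequence, of which 45 were detected (3.801%). No test was made of this.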

How the data were processed

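Small RNA of 2 hippocampus libraries was analysed. The deposited values are raw counts, 1 table a library, made by the authors on mm10 and GENCODE M21 according to the accompanying text. The aligner is not given in the sources used here, nor are the counting tool and read filters. The tables have no header. Their 3 count columns were read from the totals as either strand, the gene's strand and the opposite strand, and the gene's strand was used. A further 4 rows, which name no gene, hold unmapped, multimapping, outside-gene and ambiguous reads (72.5% of reads in replicate 1 and 64.7% in replicate 2) and stayed out of totals and tests. Unmapped reads alone made up 41.3% of reads in replicate 1 and 20.7% in replicate 2. A count was worth 0.264 CPM in replicate 1 and 0.391 in replicate 2, and 0 counts allow up to 0.791 and 1.17 CPM by counting error. All 2202 identifiers matched the annotation.

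CPM used assigned counts, and log values log2(CPM + 0.5). Libraries were compared by the two-sided exact binomial test (at least 10 counts in sum, Benjamini-Hochberg, threshold 0.05), and ratios by Fisher's exact test, adjusted over 7. edgeR 4.0.16 gave the common dispersion and TMM factors, since its quasi-likelihood test cannot contrast 2 libraries. DESeq2 1.42.0 gave size factors, in R 4.3.3. Python 3.11.15, scipy 1.17.1, pandas 2.3.3, numpy 2.4.6 and matplotlib 3.10.9 were used. The binomial test was tried on simulated counts with counting error alone. They lacked the spread between replicates seen here, so they do not show how the test behaves with it. Named are the 4 members, the 3 genes nearest each in level, and the 2 highest detected genes of each of the 3 pathway lists. Marker genes and the genes that passed the negative binomial test were named outside that rule, after their values were seen. The members and lists were chosen with earlier results of these data known. Alternatives were other scalings, count filters, denominators and strands.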

Additional observations from a re-analysis of the deposited data

How the results depend on the processing

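The family's share of 0.146% was 0.0456% of all reads when unassigned reads entered the denominator, and 0.155% in the column that ignores strand. The mean log2 ratio of the loci was 2.98, and 3.27 without the 29b genes. Neither value takes in the reads that fit both 29b hairpins. The number of genes that differed between the libraries was 264 by counting error and 2 with the negative binomial spread, where Mir29b-1 and Mir29c no longer passed although their log2 ratios were 1.66 and 0.45, against 1.59 and 0.42. That spread was estimated from the same 2 libraries. The share of genes detected was 42.3% where a mature sequence is shared and 7.82% where a 20-nucleotide stretch of the hairpin is shared, but the second is over all 2202 genes and the first over the 1018 with a matched mature sequence. On those 1018, an alternative added after seeing the data, the stretch gave 41.4%. TMM-scaled totals, DESeq2 size factors, no minimum or a minimum of 50 counts and the column that ignores strand left Mir29b-1 and Mir29c past the threshold and Mir29a and Mir29b-2 short of it. Leaving out a replicate gave log2 ratios of the loci from 2.80 to 3.16 and family shares from 0.141% to 0.151%. Comparisons of the libraries cannot be made with a replicate left out. No paired analysis was possible because there is a single group. Depth limits Mir29b-1 most, with 31 counts in replicate 2.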
